A study of Sus scrofa with 80 samples.

Results

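CD (cluster of differentiation) antigens are molecules of the cell surface that were numbered because antibodies to them sort blood cells. The set described here held the 41 genes of the pig array whose single annotated symbol began with CD and a digit, leaving out CD36 and CD74, out of 6765 genes with a single symbol. Each gene was read from its probeset of highest mean. The 41 genes had 68 probesets in all, 24 of them with 1 probeset and 17 with several. The data were 80 arrays of total RNA, hybridized to the Affymetrix porcine GeneChip, from 16 untreated pigs of both sexes. From every pig came the hypothalamus (with mamillary body and grey tubercle), the adenohypophysis (the anterior pituitary, freed of the neurohypophysis), a part of the thyroid gland, the gonad and backfat, the fat under the skin of the back. Testis and ovary were kept apart throughout, giving 16 arrays of each non-gonadal tissue, 9 of testis and 7 of ovary. There were 4 pigs of each breed, with 2 males and 2 females except in Youli, with 3 males and 1 female. Large White is a lean sire breed, slaughtered at a mean age of 87 days and 27.2 kg. The Duroc pigs, of a maternal line with high intramuscular fat, had a mean age of 83 days and a weight of 23.1 kg. Youli, a prolific line bred from Landrace and a hybrid of Chinese and European pigs, had a mean age of 80 days and a weight of 18.9 kg. Iberian, an unimproved and fat breed, had a mean age of 89 days and a weight of 17.4 kg. Since the pigs came from 3 breeding companies, breed and origin cannot be told apart.

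CD antigens fall into groups by the cells that carry them. CD3 chains with CD247 transmit the signal of the T cell receptor, CD4 and CD8 are its co-receptors, and CD79B does the same work for the B cell receptor. CD14 binds bacterial lipopolysaccharide on monocytes, CD163 takes up haemoglobin bound to haptoglobin on tissue macrophages, and CD209 is a sugar-binding receptor of macrophages and dendritic cells. CD1 molecules present lipids to T cells, whereas CD80 and CD86 give T cells their second signal. Other CD antigens are not particular to blood cells: CD46, CD55 and CD59 shield almost every cell from complement, CD9, CD63, CD81, CD82 and CD151 are tetraspanins that organize membranes, and CD34 marks endothelium as well as blood stem cells. A whole piece of tissue holds leukocytes of its own, such as the microglia of brain and the macrophages of fat, and those in blood left in its vessels. In such pieces, fewer cells of a type and less RNA per cell cannot be told apart.

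The 41 genes sorted into 11 of T and NK cells, 2 of B cells, 12 of myeloid and dendritic cells, 2 of several leukocyte types, 2 of endothelium and stroma, 3 complement regulators, 5 tetraspanins and 4 other widely expressed antigens. Levels are log2 values from GCRMA, a background correction and summary of probe brightness, and probesets with nothing bound lie at about log2 2 to 3 on this scale. A tissue mean over log2 4 is called above the dim range here. In all tissues 13 of the 41 were above it, in some tissues 14, and in none 14, namely CD180, CD1E, CD2, CD27, CD300C, CD3D, CD3E, CD3G, CD4, CD40LG, CD69, CD80, CD86 and CD8B. The median of the 41 tissue means ran from 3.41 in testis to 4.46 in backfat, against 6.78 to 6.95 for the medians of all genes. Hence the lymphocyte antigens were mostly dim in these tissues, and the widely expressed ones were bright. Between 17 and 24 of the 41 were over log2 4 on any single array.

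**Figure D1:**
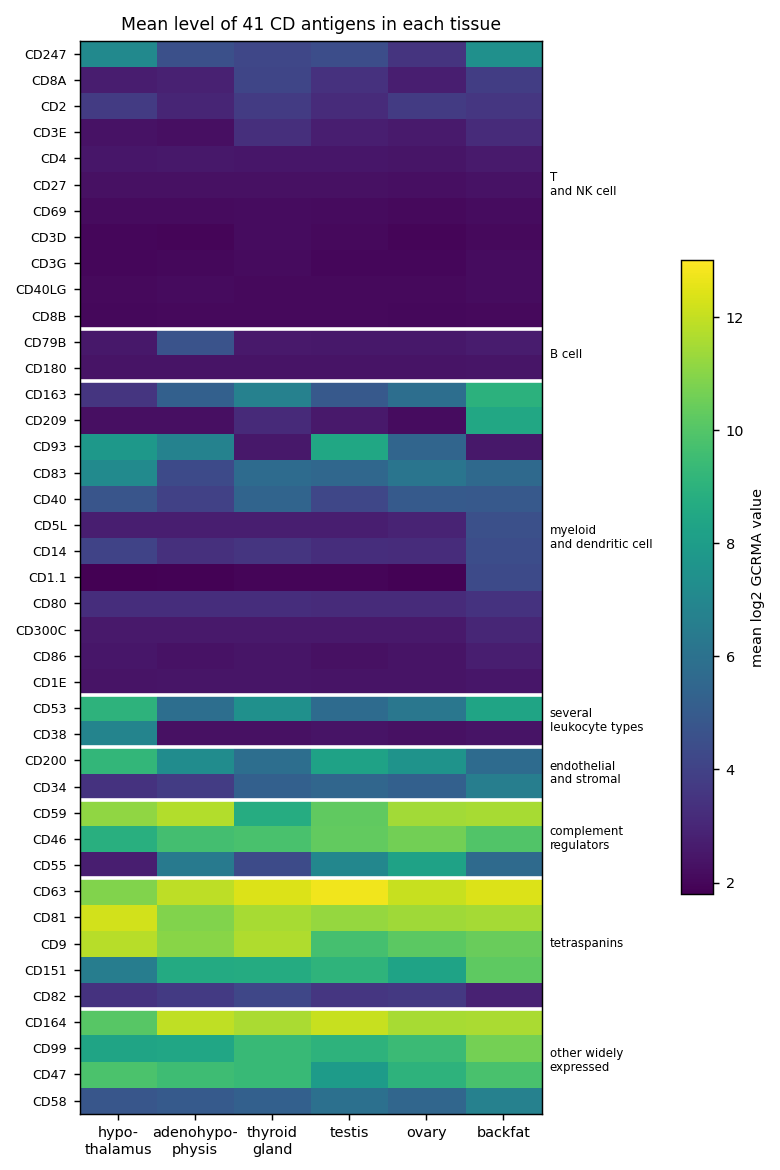
Mean log2 GCRMA value of each of the 41 CD antigens (rows, grouped by the cells that carry them) in each tissue (columns). The T, NK and B cell groups are dark apart from CD247 and, in the adenohypophysis, CD79B, the groups in the middle hold single bright antigens such as CD163 and CD209 in backfat, CD93 in testis (8.46), CD53 and CD200 in hypothalamus (9.06 and 9.23), and the complement regulators, tetraspanins and other widely expressed antigens are bright in most tissues.

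Arrays carried their tissue. Of the genes listed as defining each tissue, all were highest in their own tissue in the adenohypophysis (7), thyroid (4), testis (6) and backfat (4), 7 of 8 in the hypothalamus and 5 of 6 in the ovary. The exception in the hypothalamus was POMC, which was also on the adenohypophysis list. These lists were written with earlier results of these data known. For 11 of 16 thyroid arrays the title named another breed or sex than the breed and sex fields did, and titles were followed, since the Y-linked signal fitted the sex of 16 of 16 titles and of 8 of 16 fields. Array medians over all probesets lay between 4.67 and 5.04. They were lowest in backfat, whose mean array median was 0.25 below that of ovary and 0.13 to 0.15 below the others on the log2 scale, so that centring the arrays would raise backfat and lower ovary by about those amounts.

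The first question was in which tissue each antigen was highest. Limma fitted 6 tissue means with breed as covariate over all 23999 probesets, and p-values were adjusted by the Benjamini-Hochberg method. The 5 arrays of each pig were taken as independent in this fit, which left their pairing out. Differences among tissues passed for 38 of the 41, beside 96.9% of all genes, so that passing says little about the antigens. The exceptions were CD3D, CD3G and CD8B, with adjusted p of 0.0888, 0.0559 and 0.623. An antigen was called highest in a tissue when it passed against each of the other 5, which 27 of the 41 did. The difference given with such a call is that from the next tissue, and its adjusted p is the highest of the 5 contrasts.

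Backfat had the highest level of 17 of the 41 antigens, whereas 15.5% of all genes were highest there. Among them were 9 of the 12 myeloid and dendritic cell antigens, 3 of 11 T and NK cell antigens, CD180, CD34, CD151, CD58 and CD99. A low but general shift lies beside this count. Of 990 genes with every tissue mean in the dim range, 75.3% had a higher value in backfat, by a median of 0.05 on the log2 scale, as had all 14 dim CD antigens, by a median of 0.08. The differences from the next tissue were 0.05 for CD180, CD1E, CD27 and CD40LG and 0.10 for CD4. After quantile normalization CD180, CD1E and CD27 no longer passed (adjusted p = 0.233, 0.0934 and 0.291, limma), nor did CD4 as the mean of its probesets (adjusted p = 0.22). Leaving out probesets with all tissue means under log2 4, backfat was highest for 9 of 27 antigens, beside 12.4% of the genes left. With a difference of at least 1 on the log2 scale, a requirement added after seeing the data, 7 of 41 were highest in backfat, beside 5.11% of all genes.

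Macrophage and dendritic cell receptors made up the largest differences. CD209, with the lowest, median and highest of 16 backfat arrays at 6.52, 8.60 and 10.13, was at 2.20, 2.42 and 6.62 in thyroid and did not exceed 3.13 on any array of the other tissues. Every backfat array was therefore above all arrays of 4 other tissues, while the 2 highest thyroid arrays reached the range of backfat or nearly so (6.62 in Duroc and 6.08 in Youli). The mean of backfat exceeded that of thyroid, the next tissue, by 5.38 on the log2 scale (adjusted p = 2.57e-26, limma).

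CD163 lay at 7.59, 9.11 and 9.84 in backfat (lowest, median, highest), at 5.31, 6.41 and 9.01 in thyroid, at 4.40, 6.25 and 7.64 in ovary and at 3.33, 5.40 and 6.72 in the adenohypophysis. It was at 3.63, 5.07 and 5.88 in testis and at 2.50, 3.42 and 6.05 in the hypothalamus. The lowest backfats were overlapped by 2 thyroids, DUM12 at 9.01 and YLM20 at 7.94, and by 1 ovary, YLF21 at 7.64, and every other array was below all backfats. The difference of backfat from thyroid was 2.27 ± 0.30 (SE, adjusted p = 3.22e-10, limma), and the next step, from thyroid to ovary, was 0.83 ± 0.38, with an adjusted p of 0.0678. A second probeset of CD163, dimmer, had its highest mean in backfat as well (6.81, against 4.26 in thyroid).

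CD1.1, a lipid-presenting molecule, was at 2.40, 3.88 and 6.25 in backfat and reached at most 2.88 elsewhere. Backfat arrays were spread over more than 3 units, and its 2 lowest lay below the highest of testis. CD5L, a protein secreted by tissue macrophages, was at 2.93, 4.63 and 5.88 in backfat. Elsewhere CD5L stayed under 3, apart from 1 Iberian ovary at 4.17. The differences from the next tissue were 2.34 for CD1.1 and 1.65 for CD5L (adjusted p = 3.04e-12 and 2.54e-11, limma). CD14 was highest in backfat too, at 3.50, 4.57 and 5.16, by 0.38 over the hypothalamus at 3.48, 4.06 and 4.9 (adjusted p = 0.00198, limma), ranges that overlapped widely. CD300C, CD86 and CD80 passed with differences of 0.45, 0.24 and 0.16. These 3 stayed dim as means, although single backfat arrays reached 5.24 for CD300C and 3.94 for CD86.

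**Figure D2:**
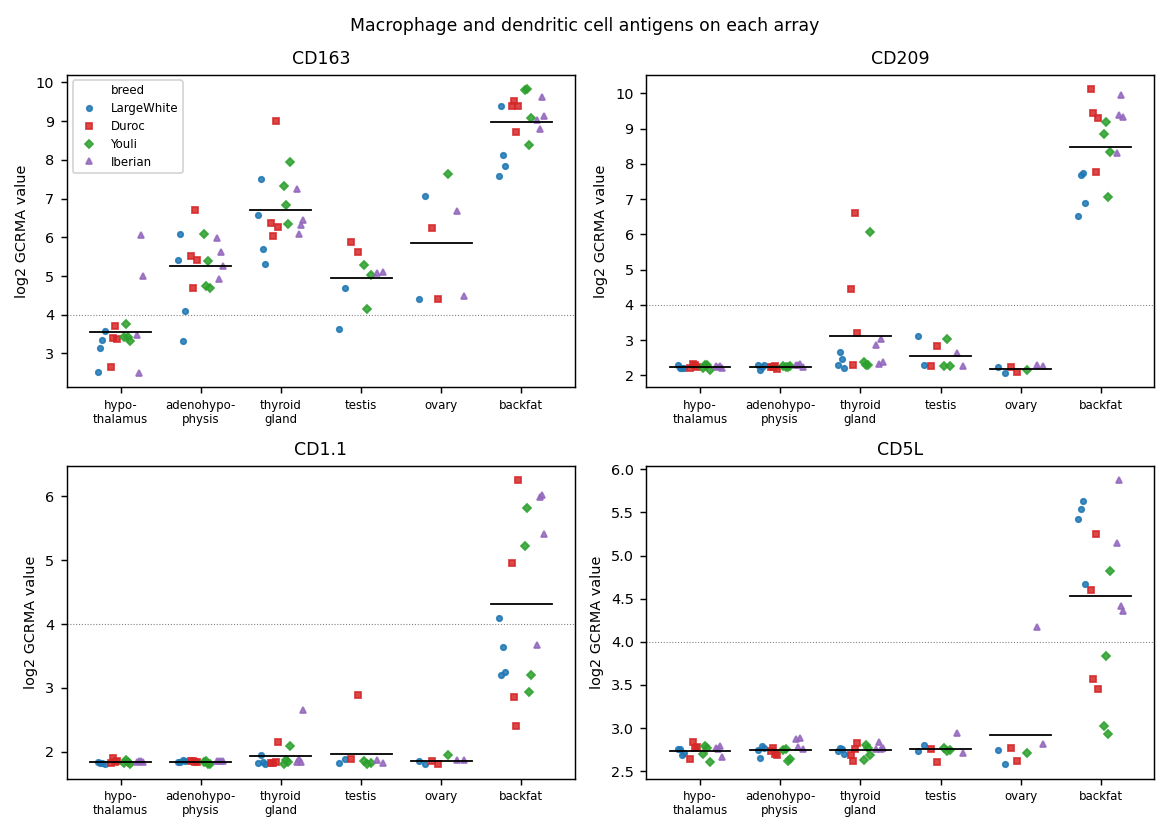
Log2 GCRMA value (vertical axes) of CD163, CD209, CD1.1 and CD5L on every array by tissue, with the breed given by colour and symbol, the tissue mean as a black line and log2 4 as a dotted line. Backfat has the highest mean in all 4 panels, with single arrays of other tissues inside its range. For CD209 all backfat arrays lie between 6.52 and 10.13 while 2 thyroid arrays are at 6.62 and 6.08.

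Genes outside the CD set followed these antigens only in part. The list of 17 other macrophage and microglia genes had medians of its array means of 7.11 in backfat and 6.81 in the hypothalamus, against 5.02 to 6.06 in the other tissues. Within it, 4 genes were highest in backfat and 7 in the hypothalamus, beside 15.5% and 11.3% of all genes. In the hypothalamus CD163, CD209, CD1.1 and CD5L had means of only 3.54, 2.25, 1.84 and 2.74. The 3 brightest, CTSS, C1QC and FCGR3A, were not called highest in any tissue. MRC1 and LYVE1, named after their values were seen, were at means of 8.45 and 8.10 in backfat and at most 7.0 and 5.70 elsewhere. Endothelial genes were also highest in backfat, with a median of array means over 9 genes of 8.54 against 5.19 to 7.25. Their part in the backfat result was not tested.

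Of the remaining backfat antigens, CD34, of endothelium and adipose stroma, was at a mean of 6.61 ± 0.43 (SD, n = 16), with testis next at 5.51 ± 0.25 (SD, n = 9). The difference was 1.11 ± 0.15 (SE, adjusted p = 3.89e-10, limma). Every backfat array, 5.94 at the lowest, was above every testis array, 5.80 at the highest, but 1 thyroid (DUF14 at 6.04) and 1 ovary (YLF21 at 5.96) exceeded the lowest backfat. CD99, a widely expressed adhesion molecule, was at 9.91, 10.67 and 11.06 in backfat against 9.11, 9.46 and 9.69 in ovary, the next tissue. CD151, a tetraspanin that binds laminin receptors, was 1.1 higher in backfat than in testis. CD58, the partner of CD2 on cells that meet T cells, was at 5.21, 6.69 and 7.49 in backfat and at 4.68, 5.27 and 8.25 in testis, a difference of means of 0.78 (adjusted p = 0.00423, limma). The ranges overlapped, since 3 testes, LWM02, YLM20 and YLM19, were at 7.21, 7.30 and 8.25, the last being the highest of all 80 arrays, while the other 6 did not exceed 5.30.

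The hypothalamus had the highest level of 5 of the 41 antigens, CD38, CD83, CD200, CD81 and CD53, beside 11.3% of all genes. The largest difference was that of CD38, an enzyme that consumes NAD and is known from plasma cells, T cells and astrocytes. CD38 was at 5.86, 6.94 and 7.53 in the hypothalamus and at most 2.85 on any other array, so that the ranges were separate. The difference from backfat, the next tissue, was 4.45 ± 0.09 on the log2 scale (SE, adjusted p = 3.51e-49, limma). Outside the hypothalamus the 5 tissue means ran only from 2.30 to 2.41, and none of their 10 differences passed.

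CD53, a tetraspanin of all leukocytes, was at 7.81, 9.05 and 10.34 in the hypothalamus and at 6.49, 8.53 and 9.10 in backfat, overlapping ranges with a difference of 0.71 ± 0.24 (SE, adjusted p = 0.00798, limma). Thyroid followed at 6.74, 7.39 and 8.19. Ovary, adenohypophysis and testis had means of 6.26, 5.85 and 5.73, and no difference among these last 3 passed. CD83, an antigen of mature dendritic cells, was at 6.69, 6.99 and 8.28 in the hypothalamus and at 3.71, 6.36 and 8.15 in ovary, the next tissue, a difference of 1.02 (adjusted p = 0.00266, limma) that did not pass without animal 25 (adjusted p = 0.062). The dimmer CD83 probeset stayed between 2.88 and 3.11 in all tissues.

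CD200, a ligand on neurons and endothelium that restrains macrophages, was at 8.63, 9.22 and 9.61 in the hypothalamus and at 7.20, 8.20 and 9.40 in testis, with a difference of 0.98 (adjusted p = 5.06e-05, limma). It was lowest in backfat and thyroid, at means of 5.71 and 5.86. CD81, a tetraspanin of many cells and a part of the B cell co-receptor, was at 11.54, 12.35 and 12.68 in the hypothalamus, 0.72 above thyroid (adjusted p = 5.94e-07). AIF1 and P2RY12, microglia genes named after their values were seen, were at 10.16 and 9.92 in the hypothalamus and at most 8.23 and 5.65 in other tissues. MRC1, LYVE1 and CD163 were at 3.83, 2.98 and 3.54 there. Over the whole list of 17 other macrophage and microglia genes, the median of array means was 6.81 in the hypothalamus and 7.11 in backfat.

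The adenohypophysis and the thyroid each had the highest level of 1 antigen. In the adenohypophysis it was CD79B, beside 7.07% of all genes. CD79B was at 2.77, 4.92 and 6.60 over 16 adenohypophyses and at most 2.80 on the 64 other arrays, where its tissue means were 2.53 to 2.64. All adenohypophyses but IBM23 were above all other arrays, and the difference from backfat was 2.05 (adjusted p = 4.62e-14, limma). CD180, the other B cell antigen of the set, was under 3 on every array. The other B and plasma cell genes listed were JCHAIN, BLNK, BTK and TNFRSF17, with adenohypophysis means of 7.17, 6.02, 3.49 and 2.98, and none was highest there. In the pig assembly Sscrofa11.1 CD79B lies next to GH1, the growth hormone gene, one of the genes that define the adenohypophysis. Whether the probeset also reads other transcripts of that stretch was not tested.

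In the thyroid the antigen was CD40, the receptor by which antigen-presenting cells receive help from T cells and which epithelium also carries, beside 7.35% of all genes. CD40 was at 4.87, 5.45 and 6.0 in thyroid and at 4.50, 5.00 and 5.53 in ovary, a difference of 0.46 with wide overlap (adjusted p = 0.0099, limma). All 3 of its probesets had their highest mean in thyroid. Without animal 5, a Large White female, the adjusted p of CD40 was 0.0577.

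**Figure D3:**
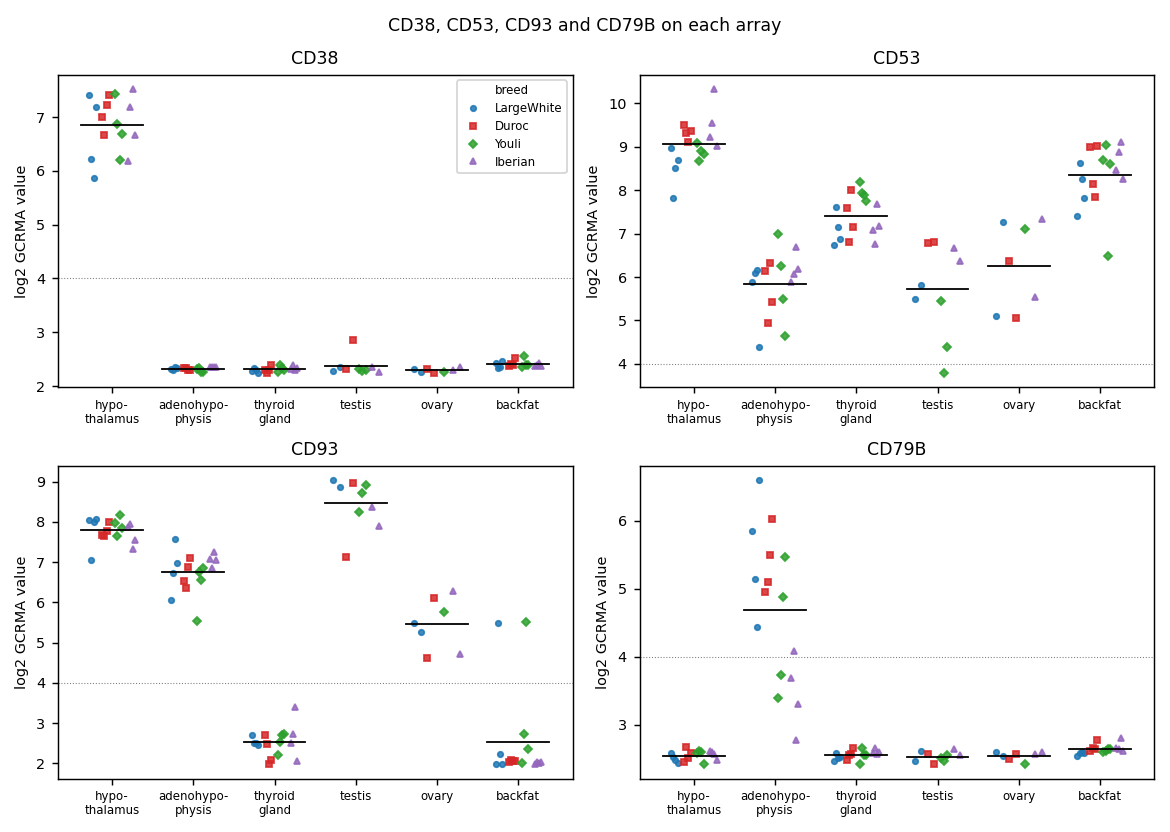
Log2 GCRMA value (vertical axes) of CD38, CD53, CD93 and CD79B on every array by tissue, with the breed given by colour and symbol, the tissue mean as a black line and log2 4 as a dotted line. CD38 is above log2 4 in the hypothalamus alone, CD79B in the adenohypophysis alone, and CD93 is high in testis, hypothalamus and adenohypophysis but low in thyroid and in all backfat arrays except 2.

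Of the 11 T and NK cell antigens only CD4, CD27 and CD40LG, all dim, were called highest in a tissue. CD3E was at 2.25, 2.84 and 5.54 in thyroid and at 2.29, 2.89 and 5.66 in backfat, and CD8A at 2.65, 4.09 and 6.24 in thyroid and at 2.68, 3.78 and 6.02 in backfat. In both tissues the arrays ran from background to clear signal. Hypothalamus and adenohypophysis had medians of 2.26 and 2.27 for CD3E and of 2.56 and 2.67 for CD8A. For CD3E, thyroid exceeded the hypothalamus by 0.97 ± 0.26 and the adenohypophysis by 1.04 ± 0.26 (SE, adjusted p = 0.000802 and 0.000423, limma), and backfat did so by 0.85 and 0.92 (adjusted p = 0.00274 and 0.00137). Between thyroid and backfat the difference was 0.12 ± 0.26 for CD3E and 0.32 ± 0.29 for CD8A, with adjusted p of 0.711 and 0.351.

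CD2, an adhesion molecule of T and NK cells, had similar means of 3.74 to 3.77 in hypothalamus, thyroid and ovary. That of the hypothalamus rested on 1 array, IBM23, an Iberian male, at 8.04, and was 3.46 ± 0.59 (SD, n = 15) without it. The same array was the highest of 16 hypothalami for CD3E (3.56, next 2.32), CD3D, CD8A (4.66, next 2.69), CD86 (3.35), CD163 (6.05), CD40, CD38, CD46, CD180 and CD53 (10.34, next 9.56). In all, it was highest for 4 of 11 T and NK cell antigens, 3 of 12 of myeloid and dendritic cells and both of several leukocyte types. It was highest for none of the 5 antigens grouped as tetraspanins, a group that leaves out the leukocyte tetraspanin CD53. It was also the lowest of 16 hypothalami for CD14 (3.48), the monocyte antigen, for CD34 (3.05) and for CD82 (2.53). Its mean over the 9 other T and NK cell genes was 3.0, with the next array at 2.57, and over the other macrophage genes 7.79, with the next at 7.01. Leaving this animal out of all tissues, 28 antigens instead of 27 were called highest somewhere. CD93 was then lost in testis, and CD82 in thyroid and CD3G in backfat were added.

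CD247, the zeta chain of the T cell receptor, went its own way. It was at 6.15, 6.99 and 9.38 in the hypothalamus and at 6.16, 7.46 and 8.58 in backfat, and means elsewhere were 3.48 to 4.55. Brain, where the median of CD3E was 2.26, thus had CD247 in the range of backfat, and these tissues differed by 0.31 ± 0.26 (SE, adjusted p = 0.272, limma). Of its 4 probesets 2 had their highest means in these tissues, and the others stayed between 1.81 and 2.10 in every tissue. CD4, CD8B, CD27, CD40LG and CD69 were under log2 3 on all 80 arrays, and so were CD180 and CD1E.

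Other T and NK cell genes were low as well. SH2D1A, IL2RG and KLRK1, the 3 brightest of 9, had their highest means in backfat, at 3.70, 4.53 and 3.77. Of the 9 genes 3 were highest in backfat and 1 in thyroid, beside 15.5% and 7.35% of all genes. Neutrophil and thymus lists had no more than 2 of 5 and 0 of 3 genes over log2 4 on any array.

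Within thyroid and backfat, T cell antigens were related across the 16 pigs, with breed and sex not adjusted for. Thyroid CD3E was at 3.68 to 5.54 in Youli, at 2.25 to 2.63 in Duroc and at 2.32 to 4.97 in Iberian pigs. Thyroid CD8A was at 4.93 to 6.24 in Youli and at 2.71 to 4.69 in Duroc pigs. The part of breed in these relations was not tested. Across the 16 thyroids CD3E and CD8A had a Pearson r of 0.861 (permutation p = 3e-05) and a Spearman rho of 0.862 (permutation p = 4e-05). Without the 2 thyroids farthest from the median of CD3E, IBM23 and YLF21, r was 0.771 (permutation p = 0.00085). Across the 16 backfats the values were r = 0.811 (permutation p = 0.00014) and rho = 0.721 (permutation p = 0.00253), and r = 0.619 without DUM15 and YLF21 (permutation p = 0.0161). CD3E with CD2 gave r = 0.716 in thyroid and 0.866 in backfat, but without the 2 farthest arrays 0.503 and 0.436, with permutation p of 0.0594 and 0.119, which did not pass.

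CD163 and CD53 were related in backfat, with r = 0.702 and rho = 0.771 (permutation p = 0.00255 and 0.00076). Without LWF05 and LWM04, the farthest for CD163, r was 0.635 (permutation p = 0.013). YLM19, the lowest backfat for CD53 at 6.49, was kept in both. That backfat also had the lowest means over the other macrophage and the endothelial genes, at 6.23 and 7.30. In thyroid the same pair had r = 0.608, and 0.524 without the 2 farthest arrays (permutation p = 0.055), which did not pass. CD163 with CD3E had r = 0.097 in thyroid and 0.438 in backfat, with permutation p of 0.727 and 0.085. In the hypothalamus CD53 followed AIF1, the microglia gene, with r = 0.937, rho = 0.941 and r = 0.931 without IBM23 and LWF06, each with a permutation p of 1e-05, the smallest that 100000 resamples can give. No relation was detected between CD79B and GH1 over the adenohypophyses (r = 0.191, rho = 0.130, permutation p = 0.475 and 0.628), or between CD34 and PECAM1 over backfats (r = 0.049, rho = -0.11, permutation p = 0.861 and 0.683). GH1 had a mean of 15.81 in the adenohypophysis, and whether its spread between arrays was limited at that level was not tested.

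Between tissues no relation passed. Thyroid and backfat of the same pig gave r = 0.232 for CD3E, 0.453 for CD8A, 0.266 for CD163 and 0.086 for CD53, with permutation p of 0.396, 0.0777, 0.32 and 0.757. These are 15 relations chosen after the levels were seen, all two-sided. Benjamini-Hochberg adjustment over the 15 left under 0.05, by r as by rho, both CD3E with CD8A relations, both CD3E with CD2, both CD163 with CD53 and CD53 with AIF1.

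**Figure D4:**
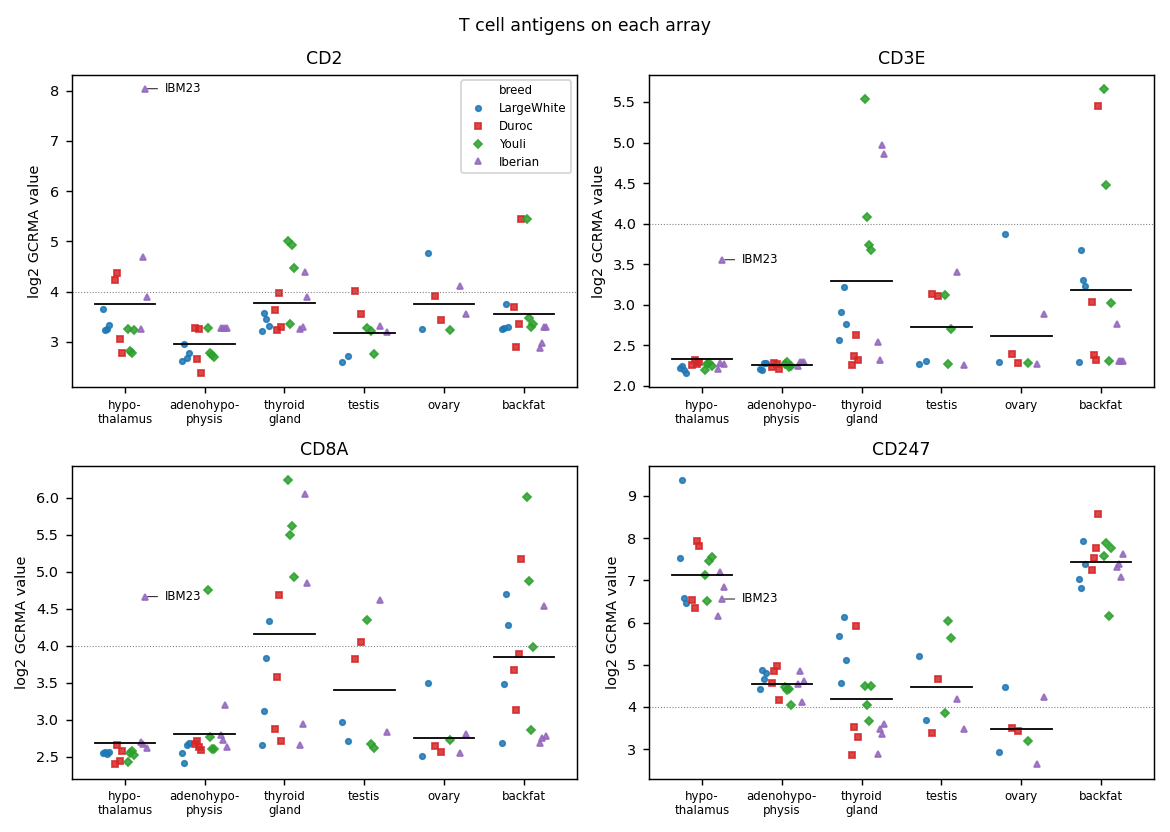
Log2 GCRMA value (vertical axes) of CD2, CD3E, CD8A and CD247 on every array by tissue, with the breed given by colour and symbol, the tissue mean as a black line, log2 4 as a dotted line and the hypothalamus of the Iberian male IBM23 labelled. CD3E and CD8A spread from background to above log2 5 in thyroid and backfat, IBM23 stands at 8.04 for CD2, and CD247 is high in hypothalamus and backfat.

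Single arrays of highest mean differed by tissue and list. Over the 11 T and NK cell antigens the highest arrays were YLF21 in thyroid (3.32) and the adenohypophysis (2.71), DUM15 in backfat (3.75, with YLF21 next at 3.67), IBM23 in hypothalamus (3.51) and testis (2.84), and LWF06 in ovary (2.84). Over the 12 myeloid and dendritic cell antigens they were IBM23 in backfat (5.14) and hypothalamus (4.09), DUM12 in thyroid (3.98) and the adenohypophysis (3.63), DUM15 in testis (3.94) and IBF22 in ovary (4.0). Over the 2 B cell antigens, LWM04 was highest in the adenohypophysis (4.51), and no array of another tissue exceeded 2.66. Animals IBM23, YLF21, DUM12 and DUM15 thus recurred among these highest arrays, and whether they did so more often than by chance was not tested.

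Complement regulators were bright, and their tissue orders differed from one another. CD55, which takes apart the complement convertases, was at 7.59, 8.21 and 8.86 in ovary, the only antigen highest there, beside 5.97% of all genes. In testis it was at 5.54, 7.0 and 8.33, in the adenohypophysis at 4.93, 6.43 and 7.29, and in the hypothalamus at 2.05, 2.66 and 3.84. The hypothalamus was apart from all other tissues except the lowest thyroids, and all 5 probesets of CD55 had their highest mean in ovary. The difference of ovary from testis was 1.21 ± 0.28 (SE, adjusted p = 0.000256, limma). CD59, which blocks the membrane attack complex, was lowest in thyroid at 7.72, 8.65 and 9.69, while the other tissues had means of 10.27 to 11.71. CD46, a cofactor in the breakdown of complement, had means of 8.85 in hypothalamus to 10.60 in ovary, and its difference between ovary and testis did not pass (0.27, adjusted p = 0.159).

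Most tetraspanins were bright in every tissue. CD63, of lysosomes and secretory granules, was highest in testis at 12.27, 12.87 and 13.19, followed by thyroid at 12.20, 12.39 and 12.68, a difference of 0.36 (adjusted p = 7.36e-05, limma). CD9 had means of 11.78 in hypothalamus and 11.65 in thyroid, which did not differ beyond their spread (adjusted p = 0.674), and of 9.69 in testis. CD82 was dim, with tissue means of 2.88 to 4.18. Of the widely expressed antigens, CD164, a sialomucin, had means of 10.08 in hypothalamus and 11.55 to 12.05 elsewhere. CD47, the signal that spares cells from phagocytes, was lowest in testis at 7.11, 8.13 and 8.63, and its highest tissue was the hypothalamus by 1 probeset and backfat by the other 2.

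In testis 2 of the 41 antigens were highest, CD63 and CD93, beside 8.59% of all genes. CD93, a lectin-like receptor of endothelium and monocytes, was at 7.12, 8.73 and 9.04 in testis, at 7.04, 7.86 and 8.18 in hypothalamus and at 5.53, 6.85 and 7.56 in the adenohypophysis. The call for testis over hypothalamus was narrow (0.66, adjusted p = 0.0361, limma) and did not pass in 7 of 25 other settings, among them those without animals 2, 4, 15, 20 or 23. In thyroid CD93 stayed at 1.99 to 3.39, and in backfat at 1.97 to 2.72 except on 2 arrays, LWF06 at 5.48 and YLM19 at 5.50. These are the tissues in which the list of endothelial genes was highest. A second probeset of CD93 was between 2.38 and 2.53 in all tissues.

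The next question was whether testis and ovary differed. Between 9 testes and 7 ovaries, with breed as covariate, 8 of the 41 antigens passed, beside 36.2% of all genes, and 4 were higher in testis and 4 in ovary. Median differences were 0.03 over the antigens and 0.02 over all genes. CD93 was higher in testis by 2.94 ± 0.33 (SE, adjusted p = 4.27e-05, limma), with ovaries at 4.62, 5.50 and 6.29, all below the lowest testis. CD151 was higher by 0.83 ± 0.20, CD63 by 0.76 ± 0.12 and CD164 by 0.49 ± 0.08, with ranges that overlapped.

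Ovaries were higher for the complement regulators CD55 and CD59 and for CD47 and CD40. CD59 was at 10.92, 11.49 and 11.64 in ovary and at 9.30, 10.52 and 11.03 in testis, a difference of testis from ovary of -1.07 ± 0.21 (SE, adjusted p = 0.00198, limma). CD47 differed by -0.96 ± 0.19, with all ovaries (8.73, 8.95, 9.37) above all testes by the probeset of highest mean. By its other probesets the means were closer, at 7.20 and 8.24 in testis and at 7.37 and 8.58 in ovary. The differences of CD55 and CD40 were -1.12 ± 0.33 and -0.76 ± 0.16 (SE, adjusted p = 0.0215 and 0.00361). CD55 did not pass as the mean of its probesets or without YLF21. The testes LWM02, YLM19 and YLM20, set apart for CD58, were also the lowest testes for CD47 (7.18, 7.11 and 7.46). They were the lowest for CD59 (9.30, 9.81 and 9.39) and CD55 (6.13, 5.54 and 6.36) as well. The other testes began at 8.12 for CD47, 10.02 for CD59 and 6.98 for CD55. The part of this split in the differences was not tested. With arrays centred on their medians, 13 antigens passed, of which 9 were higher in testis, against 4 of 8 as deposited. The added ones were CD200, CD209, CD27, CD3D and CD3G. Among all genes that passed, the share higher in testis was 54.1% as deposited and 66.1% after centring. No T cell or B cell antigen passed as deposited.

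Sex differences in gonads were then set against those in the other tissues of the same pigs. The difference of differences passed for 7 of 41 antigens, beside 32.4% of all genes, with CD93 at 2.81 ± 0.37 (SE, adjusted p = 0.000148, limma), CD151 at 0.90, CD63 at 0.74, CD164 at 0.52, CD40 at -0.78, CD47 at -0.92 and CD59 at -1.11. All 7 also passed between testis and ovary.

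**Figure D5:**
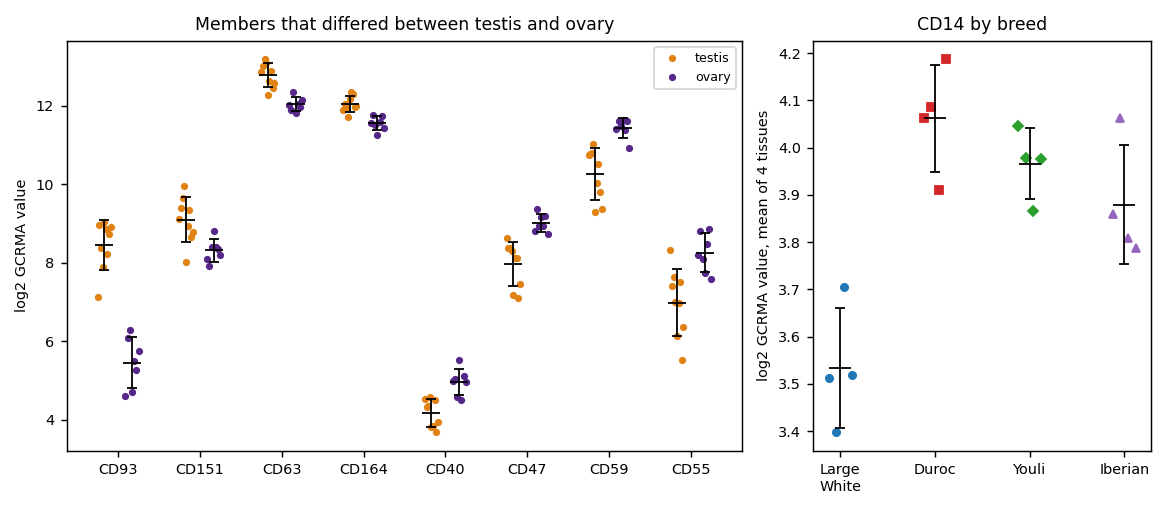
Left, log2 GCRMA value of the 8 CD antigens that passed between testis (9 arrays, orange) and ovary (7 arrays, purple), each point an array and each bar the mean ± SD. Right, CD14 as the mean of 4 non-gonadal tissues for each of 16 pigs by breed, with mean ± SD. CD93 separates the gonads fully, from 7.12 to 9.04 in testis against 4.62 to 6.29 in ovary, and the 4 Large White pigs have the lowest CD14.

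Outside the gonads no antigen passed between males and females. In limma with breed as covariate the count was 0 of 41 in hypothalamus, adenohypophysis, thyroid and backfat, beside 0.0443%, 0.65%, 0.0739% and 0.0148% of all genes. At an unadjusted p under 0.05 there were 1, 2, 1 and 0 antigens, and 1.82%, 10.2%, 5.08% and 2.31% of all genes. The lowest p-values belonged to CD163 (0.99 higher in males) and CD46 (0.12 higher) in hypothalamus, each with an adjusted p of 0.998 in limma, and to CD93 (0.67 higher in males) and CD55 (-0.93, lower in males) in the adenohypophysis, with adjusted p of 0.0954 and 0.184. In thyroid they were CD8A (0.97 higher in males, at means of 4.72 ± 1.01 and 3.44 ± 1.27, SD) and CD200 (0.33 higher), each with an adjusted p of 0.964, and in backfat CD79B and CD8B, with differences of 0.05 in size and an adjusted p of 0.999. For the mean of the 4 non-gonadal tissues of each pig, 0 of 41 passed, beside 0.133% of all genes, 0 antigens and 4.11% of all genes having an unadjusted p under 0.05. CD3G (0.09 higher in males) and CD200 (0.16 higher) came first. With the gonads in the mean, CD63 and CD93 passed.

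Breeds were compared last. By the moderated F over 4 breeds in limma, 0 of 41 antigens passed in each single tissue, beside 0.192% of all genes in hypothalamus, 0.281% in the adenohypophysis, 0.695% in thyroid, 0.665% in backfat and 0% in testis and in ovary. Unadjusted p-values under 0.05 numbered 3, 7, 7, 11, 9 and 1 of 41 in that order of tissues, against 16.1%, 15.7%, 17.4%, 19%, 18.5% and 7.38% of all genes. The 2 antigens of lowest p were CD14 and CD53 in hypothalamus, CD63 and CD79B in the adenohypophysis, CD46 and CD34 in thyroid, CD59 and CD55 in backfat, CD82 and CD53 in testis and CD34 and CD59 in ovary, with adjusted p from 0.0899 for CD59 in backfat to 0.743 for CD59 in ovary.

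CD59 in backfat was at 11.92, 11.93, 12.03 and 12.16 in the 4 Iberian pigs and at most 11.90 in the 12 others. CD79B in the adenohypophysis was at 2.77, 3.31, 3.69 and 4.08 in Iberian pigs, at 4.95, 5.10, 5.50 and 6.03 in Duroc and at 4.44, 5.14, 5.85 and 6.60 in Large White pigs. These Iberian pigs lay below all Duroc and Large White pigs but overlapped Youli, from 3.39 to 5.47, and the adjusted p was 0.195 in limma. CD209 in backfat was at 7.21 ± 0.61 in Large White and at 9.16 ± 0.99 in Duroc, 8.36 ± 0.94 in Youli and 9.24 ± 0.69 in Iberian pigs (SD, n = 4 each), with an adjusted p of 0.161.

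Over the mean of the 4 non-gonadal tissues of each pig, 1 antigen of 41 passed, CD14, beside 1.05% of all genes, and 6 of 41 had an unadjusted p under 0.05, against 20.5% of all genes. The 4 Large White pigs were at 3.40, 3.51, 3.52 and 3.70, the Iberian at 3.79, 3.81, 3.86 and 4.06, the Youli at 3.87, 3.98, 3.98 and 4.05 and the Duroc at 3.91, 4.06, 4.09 and 4.19. Large White was thus below all other pigs, and the other breeds overlapped. The range of the breed means was 0.53 (adjusted p = 0.0258, limma). In Large White the mean of CD14 was lowest of the breeds in hypothalamus, thyroid and backfat. The largest gap was 1.07 from Duroc in backfat, at 3.79 ± 0.37 against 4.87 ± 0.40 (SD, n = 4 each). In thyroid the Large White arrays, at 3.33 to 3.50, lay within the range of the Iberian, at 3.30 to 3.61. All breed means of the adenohypophysis lay between 3.30 and 3.48. Most pigs, all 4 Large White among them, had a 4-tissue mean of CD14 under log2 4, in the dim range. These values are read from 1 probeset, and the second CD14 probeset stayed at 2.08 to 2.15 in all tissues. CD14 did not pass without animals 4, 5, 13, 14 or 21, nor when hypothalamus, thyroid or backfat was left out of the mean (adjusted p up to 0.119). With all 64 arrays and the animal as replicate block, 4 antigens passed, CD14, CD47, CD81 and CD82.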

How the data were processed

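Total RNA of 5 tissues from each of 16 pigs was hybridized to 80 Affymetrix porcine arrays, which 9 males and 7 females gave. The deposited values, as the authors made them, are log2 signals after GCRMA, which corrects background by probe sequence, equalizes the distribution over arrays and summarizes each probeset; their medians still differed between tissues. The number of arrays limits the precision. Platform annotation gave 10069 probesets 1 gene symbol, 198 several and 13732 none, and 124 control probesets were left out.

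Limma 3.58.1 (R 4.3.3) was fitted to all 23999 probesets as deposited, with Benjamini-Hochberg adjustment over all of them and a threshold of 0.05. Tissue and sex fits carried breed as covariate and breed fits carried sex, except within testis and ovary. Arrays were grouped by title, since breed and sex fields of 11 thyroid arrays went against it. P-values of the sex and breed fits measure the spread between these pigs. Those of the tissue fits measure the spread between the 80 arrays, since the main fit took the arrays of one pig as independent. Samples of one pig were paired by its number: over the 200 probesets that differed most between animals in the other tissues, 16 of 16 arrays of each non-gonadal tissue and 13 of 16 gonads correlated best with their own animal. The highest correlation of any pair of arrays was 0.992, and no pair was identical.

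The members and lists were chosen with earlier results of these data known. Named were, of each CD list, up to 4 antigens of highest mean, and of each tissue up to 4 of largest difference. For sex and breed they were those that passed or else the 2 of lowest p. For each tissue the array of highest list mean was named, and of other lists up to 3 genes of highest mean. Named outside these rules were, among others, CD209 by breed in backfat, CD3E and CD8A by breed in thyroid, and MRC1, LYVE1, AIF1 and P2RY12. Alternatives were the mean of a gene's probesets, dim probesets (under log2 4 in all tissues) left out, arrays centred or quantile normalized, trend and robust moderation, each animal left out, the animal as replicate block, thyroid labels by fields, and other covariates or tissue means. Added after seeing the data were a difference of at least 1 on the log2 scale and each tissue left out of the mean. The fits were tested on simulated data. Correlations used scipy 1.17.1 with 100000 permutations over all pigs, without adjustment for breed or sex.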

Additional observations from a re-analysis of the deposited data

Results flagged for a closer look

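Of 128 groups of antigen or list values examined for a single distant array, 11 held one, where chance gives about 1 in 20 groups. In ovary these were CD46, lowest in IBF25 at 9.79 (next 10.52), CD59, lowest in YLF21 at 10.92 (next 11.40), CD5L, highest in IBF22 at 4.17 (next 2.81), and CD81 and CD82, both highest in IBF25, at 12.29 and 4.96 (next 11.44 and 3.72). Animal IBF25 thus gave 3 of the 5 ovary values. Within a breed they were CD14 in the hypothalamus of Youli, lowest in YLM18 at 3.97 (next 4.49), and CD34 in the thyroid of Large White, lowest in LWM04 at 4.21 (next 5.11). For list means they were the T and NK cell antigens in backfat and thyroid of Duroc, highest in DUM15 at 3.75 (next 3.01) and in DUM12 at 2.96 (next 2.50). The myeloid and dendritic cell antigens had one in the hypothalamus of Duroc, lowest in DUF13 at 3.63 (next 3.77), and one in the thyroid of Large White, highest in LWF06 at 3.62 (next 3.40).

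The sex difference in gonads differed from that in the other tissues of the same pigs for 7 antigens. Male minus female in gonads, less that elsewhere, was 2.81 for CD93, 0.90 for CD151, 0.74 for CD63, 0.52 for CD164, -0.78 for CD40, -0.92 for CD47 and -1.11 for CD59 on the log2 scale (limma adjusted p at most 0.0128).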

How the results depend on the processing

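Counts of antigens that passed stayed within 1.5 times under all alternatives except the following. With a difference of at least 1 on the log2 scale required, 11 antigens instead of 27 were highest in a tissue. With centred arrays, 13 instead of 8 passed between testis and ovary. With trend and robust moderation, 1 antigen (CD40LG) instead of 0 passed among breeds in backfat. Of the 4-tissue means by breed, 0 instead of 1 passed with hypothalamus, thyroid or backfat left out, and 4 with the animal as replicate block. With the gonads in the mean, 2 instead of 0 passed by sex. The cause of these shifts was not tested. The replicate block left 27 antigens highest in a tissue and 0 by sex over 4 tissues, and gave 39 instead of 38 for the tissue difference.

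With each animal left out in turn, counts ran from 26 to 28 for the highest tissue, 37 to 40 for tissue differences, 8 to 9 for testis against ovary, 7 to 9 for gonads against other tissues, 0 to 2 for breed in backfat (CD58 and CD81 without YLM19), 0 to 1 for breed in thyroid (CD247 without DUM12) and 0 to 1 for breed over 4 tissues. Those of the other comparisons were 0 throughout, and no antigen reversed direction. Signal near background limits the 14 dim antigens.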

Other observations

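Other leukocyte genes gave levels that belong to no comparison above. Among genes of all leukocytes, the brightest were LAPTM5, CXCR4 and ARHGDIB, and CXCR4, a chemokine receptor, had its highest mean in the adenohypophysis at 10.49. KIT and MS4A2, the mast cell genes measured, had their highest means in thyroid at 7.99 and in backfat at 7.15. LTF, a granule protein of neutrophils and of gland epithelium, was at 7.27 in thyroid, while S100A9 and MMP9 were dim in most arrays. CCL21, a chemokine of lymphatic vessels and lymph node stroma, had means of 8.93 in testis, 8.23 in thyroid and 7.98 in ovary. PTH, the hormone of the parathyroid gland, stayed at background in thyroid.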
